A study of Mus musculus with 2 samples.

Results

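Gfap, Mbp, Olig1, Olig2 and Sox10, which mark astrocytes and oligodendrocytes, were followed by the CpG methylation of the DNA around them in mouse hippocampus. The 5 genes were taken as 4 fixed spans of the mm9 genome with flanks, since Olig1 and Olig2 are neighbours and share a span. A cytosine entered where both libraries covered it with at least 10 reads, which left 1221 of the 2844 cytosines listed in the spans, out of 2312276 such cytosines in all. Gfap contributed 94 of them, Mbp 506, the Olig1/Olig2 span 495 and Sox10 126. They fell in 139 of the 466 bins of 500 bp that make up the spans, so most of the length has no value here.

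There were 2 libraries of bisulfite-treated, target-enriched hippocampal DNA from C57BL/6 mice. The control library came from mice with no treatment. The other came from offspring whose exposure to arsenic trioxide (ATO, 5000 ppb in the water they drank) started before their parents mated, ran to lactation and was kept up in the offspring from weaning to the end of the experiment. The labels give no age, sex or genetic modification, and do not say whether a library was 1 animal or a pool. With 1 library per group, every comparison is between 2 libraries, with no replicate check, and none is a test of the exposure. The level of a cytosine is the percent of its reads that kept a C after bisulfite, which turns unmethylated cytosine into uracil, and differences are given in percentage points with the control subtracted from ATO. Hydroxymethylated cytosine, which is common in brain, also resists bisulfite and counts as methylated. Median coverage of the spans was 40 to 61 reads in the control and 42 to 62.5 reads in the ATO library, and 1204 of the 1221 cytosines were on the reverse strand.

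Astrocytes support neurons and take up transmitter, and their defining filament protein is GFAP. Oligodendrocytes wrap axons in myelin, which MBP, the myelin basic protein, holds compact. OLIG1 and OLIG2 are basic helix-loop-helix transcription factors of the oligodendrocyte lineage, and SOX10 is an HMG-box factor that switches on myelin genes together with them. Dense clusters of CpGs at gene starts are usually unmethylated in every tissue, whereas CpGs elsewhere are mostly methylated. Where they are unmethylated in 1 cell type, a bulk tissue shows a partial level. In bulk DNA, a smaller share of cells of a type and a different level within those cells cannot be told apart, and no transcripts were measured here.

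Of the 5 members, Gfap and Olig2 have a promoter window in the RefSeq table (GRCm38.p6), which runs from 250 bases before to 50 after a gene's start. The windows were located in the files' mm9 positions by the spacing of their CpGs. All 25 CpGs of the Olig2 window fell on listed cytosines at 1 place, which puts the start of Olig2 at base 91225795 of chromosome 16. The Gfap window holds 3 CpGs, too few to be placed, and 31.4% of the 32851 windows of the table hold at most 3. The Sox10 span also took the window of Gm10863, a long noncoding RNA gene that follows Sox10 in the RefSeq gene order, with 19 of 19 CpGs matched. The bases before these starts are shown because these are the gene starts with values in the spans, with each CpG in capitals. The Olig2 bases are on the plus strand at chr16:91225545-91225794 and those of Gm10863 on the plus strand at chr15:78996246-78996495, both in mm9.
Olig2: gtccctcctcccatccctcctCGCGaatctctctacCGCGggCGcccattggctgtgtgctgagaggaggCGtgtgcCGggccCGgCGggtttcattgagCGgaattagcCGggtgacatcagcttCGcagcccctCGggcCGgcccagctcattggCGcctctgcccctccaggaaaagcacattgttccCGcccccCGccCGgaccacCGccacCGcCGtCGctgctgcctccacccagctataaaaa
Gm10863: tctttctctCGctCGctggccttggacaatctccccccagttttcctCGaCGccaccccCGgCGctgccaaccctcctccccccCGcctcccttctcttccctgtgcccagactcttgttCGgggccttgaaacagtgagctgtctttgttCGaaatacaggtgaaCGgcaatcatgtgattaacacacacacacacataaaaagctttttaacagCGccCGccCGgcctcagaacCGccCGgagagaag

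The Olig2 stretch holds 22 CpGs and 66.8% G and C, and 19 of its cytosines were analysed, with a mean of 1.35% in control and 2.36% in ATO DNA. The Gm10863 stretch holds 15 CpGs at 57.2% G and C. Its 10 analysed cytosines averaged 75.1% in control and 62.8% in ATO DNA. A CpG-rich start was thus almost free of methylation at Olig2 and largely methylated at Gm10863.

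Levels differed more between the genes than between the libraries. The Olig1/Olig2 span was nearly unmethylated, at a mean of 8.60% in control and 9.23% in ATO DNA. The Mbp span was the most methylated, at 58.0% and 57.4%. Gfap, at 40.4% and 38.1%, and Sox10, at 38.8% and 36.6%, lay between them and held methylated and unmethylated stretches side by side. The difference was 0.63 points at Olig1/Olig2 (SD between cytosines 8.16), -0.57 at Mbp (SD 12.2), -2.18 at Sox10 (SD 13.2) and -2.31 at Gfap (SD 15.6). The Gfap difference was -1.01 with a coverage minimum of 30, and that of Sox10 -1.06 with each read weighted alike. Over all cytosines of the series it was -1.28 points (SD 11.9), from 38.0% to 36.7%. The order of the genes was the same in both libraries, and Gfap and Sox10, neighbours in that order, lay within 2 points of each other in each.

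**Figure D1:**
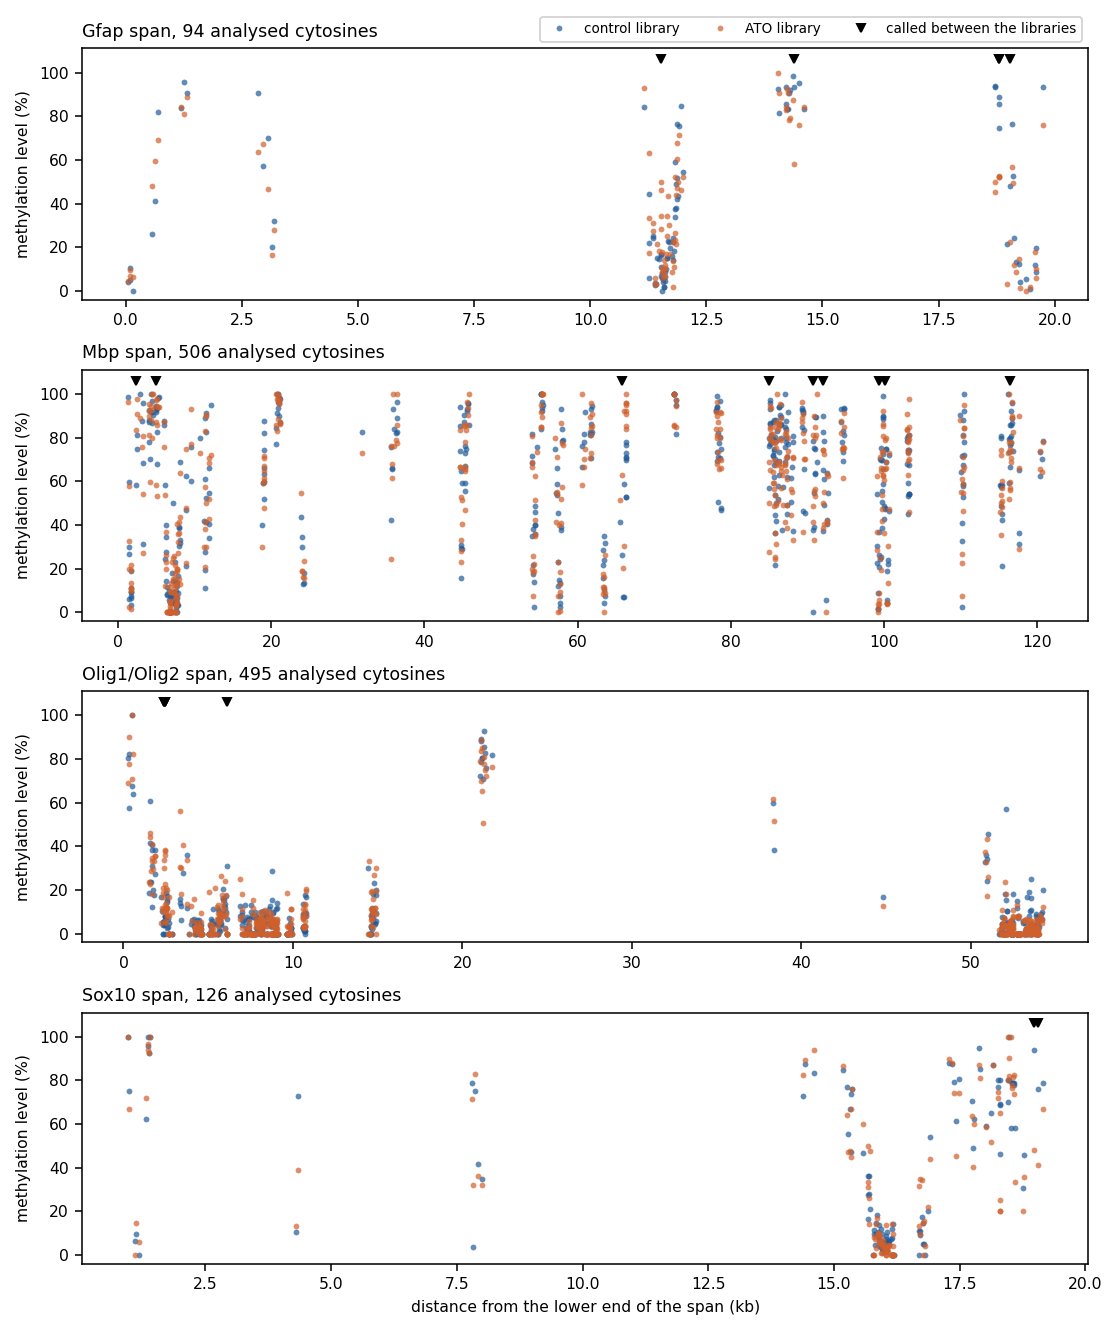
Methylation level (%) of each analysed cytosine against its distance from the lower end of the span (kb), in 4 panels for Gfap, Mbp, Olig1/Olig2 and Sox10. Blue points are the control and orange points the ATO library, and triangles mark the 22 cytosines called between them. The Olig1/Olig2 span stays low over most of its measured length, Mbp is mostly high, and the Gfap and Sox10 spans fall to low values in short stretches.

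At single cytosines, 22 of 1221 were called, meaning an adjusted p under 0.05 in Fisher's exact test on its reads (two-sided) and a difference of at least 25 points. That is 1.80%, against 2.65% over all 2312276 cytosines. In the ATO library 12 were lower, where 1.73% of all cytosines were called in that direction, and 10 were higher, where 0.916% were. An unadjusted p under 0.05 was found at 163 of them, or 13.3%, against 12.8% of all cytosines. Counts were also scaled down by the dispersion found between both strands of CpGs with a level of 20 to 80% in a library (3.11). With that, none of the 1221 passed Fisher's exact test, and 823 of the whole series did. By gene, 5 of 94 cytosines were called at Gfap (5.32%), 9 of 506 at Mbp (1.78%), 6 of 495 at Olig1/Olig2 (1.21%) and 2 of 126 at Sox10 (1.59%). The shares for Mbp, Olig1/Olig2 and Sox10 lay below the share for the whole series, and that for Gfap rests on 5 cytosines, 2 of which lie 5 bases apart. Called shares depend on level. Among cytosines with a mean level under 20%, 3 of 447 (0.671%) were called at Olig1/Olig2, against 0.0997% over the series. From 20 to 80%, they were 3 of 41 (7.32%), against 9.25%. Of these 6 cytosines of Olig1/Olig2, 5 lie within 79 bp and share reads, so both shares rest largely on 1 place. None of the 81 bins of 500 bp that could be tested was called, at an adjusted p under 0.05 in Fisher's exact test and a difference of at least 20 points. Over the series 1.80% of 152175 bins were called, 1.17% lower and 0.630% higher in the ATO library. In the spans 4 bins had an unadjusted p under 0.05 in that test, which 7.95% of all bins had.

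Olig2 lies in the broadest unmethylated stretch of the spans. From base 91221527 to 91228783 of chromosome 16, which is 4.27 kb upstream to 2.99 kb downstream of the Olig2 start, 247 cytosines averaged 4.48% in control and 4.72% in ATO DNA. In the promoter window itself, 2.21% of 587 calls were methylated in the control (exact 95% interval 1.18 to 3.76) and 3.20% of 625 calls in the ATO library (1.97 to 4.90). The intervals overlap, and none of the 22 analysed cytosines of the window was called. The mean difference was 0.79 points, and -0.70 with the window extended by 500 bp on each side. These intervals, like all those given here, cover counting error only, since it is not known whether reads that copy the same molecule had been removed. Those of promoter windows also count every call as independent, although neighbouring CpGs share reads.

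The clearest local difference near Olig2 was a gain 5.3 to 5.5 kb upstream of its start. There, 15 neighbouring cytosines between bases 91220247 and 91220487 of chromosome 16 were all higher in the ATO library, with a mean of 5.32% in control and 21.9% in ATO DNA. In the control they ranged up to 12.1%, and in the ATO library from 6.00% to 38.2%. Of these, 5 cytosines within 79 bp were called, with control levels of 3.80% to 8.22% at 65 to 79 reads and ATO levels of 30.2% to 38.2% at 50 to 55 reads. Their adjusted p ran from 0.000443 to 0.00454 in Fisher's exact test. Cytosines so close are read on the same fragments, so they are not separate observations. The 500-bp bin that starts at base 91220001, with 17 cytosines of which 15 were higher, went from 6.06% to 20.8%. Once its reads were weighted for shared fragments it missed the threshold, with an adjusted p of 0.516 in Fisher's exact test.

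A second stretch with higher levels, at bases 91221332 to 91221527, went from 15.5% to 35.1% over 5 cytosines, none of which was called. Nearer to the gene, base 91224096, at 1.70 kb upstream of the start, was 30.8% in the control (26 reads) and had no methylated read among 35 in the ATO library, which allows a level of up to 8.57% when the limit is set at 3 reads. It was called with an adjusted p of 0.0196 in Fisher's exact test, and was the only called cytosine of the span that was lower. By bin, the 92 cytosines of the span within 2000 bp of a dense unmethylated bin (15 or more cytosines, mean under 10%) averaged 16.2% in control and 20.2% in ATO DNA, and held all 6 called cytosines. Those 6 are 6.52% of the 92, against 2.64% of such cytosines over the series, and 5 of them lie within 79 bp. The 363 cytosines of the dense bins themselves averaged 4.03% and 3.84%, with none called, against 0.0445% over the series.

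Olig1 follows Olig2 in the RefSeq gene order, and its position within the span is known here by that order alone. The upper end of the span, beyond a gap of 16.6 kb with no analysed cytosine, was nearly unmethylated as well. Its 155 cytosines averaged 5.55% in control and 4.49% in ATO DNA, a difference of -1.06 points, and 94.2% of them were under 20%. None was called. Its bin from 91270501, with the lowest mean of both libraries in the span, was 1.98% and 2.60% methylated. On this side, 147 cytosines between bases 91269650 and 91272241 averaged 3.90% and 2.81%. The 340 cytosines on the Olig2 side of the gap differed in the other direction, by 1.40 points, from 9.99% to 11.4%, and 88.5% of them were under 20%. The bin from 91239001, on that side, had the highest level of the span and the largest drop of a bin, from 81.8% to 76.1%, with 7 of 11 cytosines lower and none called. The sign of the difference over the whole span depends on its lower edge: without the outer 5 kb on each side, which hold the upstream gain, it was -0.35 points.

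The Sox10 span held 1 unmethylated stretch between methylated flanks. Over 1.34 kb of chromosome 15, from base 78993572 to 78994911, 64 cytosines averaged 10.2% in control and 10.99% in ATO DNA. The lowest bin, from base 78994001, was 5.41% and 3.49% methylated, and the highest, from 78995001, 77.8% and 72.5%. Bins with little and with high methylation thus lay 1 kb apart in each library. Of the 126 cytosines of the span, 73 were lower in the ATO library, 44 higher and 9 equal.

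Lower levels were found on either side of that stretch. Below it, the bin from 78979001 had the largest drop of a bin when reads were summed, from 67.0% to 55.7%. The mean over its 8 cytosines did not fall, at 58.3% in control and 59.5% in ATO DNA, with 4 higher and 2 lower. Also below the unmethylated stretch, 5 neighbouring cytosines at 78993266 to 78993345 averaged 64.04% and 54.03%. Above it, from base 78995379 to 78996309, 17 neighbouring cytosines were all lower in the ATO library, at a mean of 71.5% in control and 58.8% in ATO DNA, with none called. A further 7, from 78996587 to 78997150, averaged 66.04% and 45.5%. They include both called cytosines of the span. Base 78996983 was 93.9% in the control (49 reads) and 47.9% in the ATO library (48 reads), with an adjusted p of 6.36e-05 in Fisher's exact test. Base 78997060 was 75.9% (79 reads) and 41.3% (92 reads), with an adjusted p of 0.000597 in that test. The Gm10863 start, printed above, is at base 78996496, between these stretches. Over its whole window, 13 cytosines with median depths of 14 and 12 reads averaged 74.4% and 67.9%, and the difference of -6.47 points had an SD between cytosines of 26.0, with none called. It was -2.13 points with a coverage minimum of 5 and -10.2 with 20. The bin with the largest gain, from 78994501, went from 13.1% to 17.6%, and in it 5 cytosines at bases 78994685 to 78994743 averaged 9.79% and 24.7%, at median depths of 18 and 26 reads and with none called. No bin of the span had an unadjusted p under 0.05, and the smallest adjusted p of its 9 tested bins was 1 in Fisher's exact test.

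Mbp, the longest span at 124 kb, had analysed cytosines in 76 of its 248 bins of 500 bp. Most of these cytosines were partly or highly methylated in both libraries. Of its 506 cytosines, 146 had a mean level over 80%, 269 lay between 20 and 80% and 91 were under 20%. The lowest bin, from base 82644501 of chromosome 18, was 2.50% methylated in control and 3.65% in ATO DNA. It belongs to a 1.36-kb stretch from 82644630 to 82645990, where 55 cytosines averaged 8.08% and 10.8%. The bin with the highest mean of both libraries, from 82658501, was 95% and 96.2%. The span held slightly more lower than higher cytosines in the ATO library, 276 against 217. That is 54.5% lower, against 43.8% over the series. These shares count cytosines with equal levels, 13 of 506 at Mbp but 439730 of 2312276 over the series, so they are not directly comparable. Between 20 and 80%, 57.6% were lower, against 58.4% over the series. Lower neighbours came together in 17 runs of at least 5 cytosines, against 3 runs of higher ones. Runs were not counted over the series, so no background is given for these counts.

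The most distinct site at Mbp was a gain at bases 82703574 to 82704393, where 13 neighbouring cytosines were all higher in the ATO library and averaged 52.7% in control and 76.5% in ATO DNA. The bin from 82704001, with 10 cytosines, went from 66.05% to 86.5%, all 10 higher, at an average of 59.2 and 66.8 reads per cytosine. Its adjusted p was 0.146 in Fisher's exact test with reads weighted for shared fragments. With every read counted as independent, it passed, as did 1 bin at Gfap. Those are 2 of the 81 bins tested in the spans (2.47%), against 4.94% of all bins. The Mbp bin from 82701001 was lower in the ATO library, from 21.1% to 10.95%, and all 6 of its cytosines were lower. The strongest run of lower levels, 5 cytosines at 82724516 to 82724615, averaged 87.3% and 71.3%, with none called.

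The 9 called cytosines of Mbp were spread over the span, 5 lower and 4 higher. The largest drop was at base 82722981, from 76.4% to 27.6% (adjusted p 4.54e-05 in Fisher's exact test). Base 82737411 went from 37.0% to 5.88% (adjusted p 3.66e-05 in that test). Lower levels were also called at 82642911, from 94.6% to 58.3%, at 82730118, from 65.2% to 38.7%, and at 82754547, from 85.7% to 56.8%. The largest rise was at base 82728789, which had no methylated read among 22 in the control, a limit of 13.6% at 3 reads, and 48.6% in the ATO library at 35 reads (adjusted p 0.00319 in Fisher's exact test). Higher levels were called at 82703763, from 26.2% to 62.8%, at 82738160, from 47.9% to 79.1%, and at 82640367, from 58.4% to 83.7%. Base 82703763 lies in the run of 13, and 82722981, 82730118 and 82754547 each lie in a run of 8 lower cytosines, while the other 5 lie in no run.

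At Gfap, the 94 cytosines lay in separate groups, and no analysed cytosine lay in a 7.98-kb gap from base 102746185 to 102754162 of chromosome 11. The start of the gene was not placed, so the distance of these groups from it is not given. Levels ran from nearly unmethylated to over 90% over short distances. The bin from 102754501, with 36 cytosines, had the lowest mean of both libraries, at 23.1% in control and 24.8% in ATO DNA. The bin from 102757001 had the highest, at 91.4% and 79.9%. Within the low group, 21 neighbouring cytosines from 102754446 to 102754692 were all higher in the ATO library, at 10.2% and 21.5% on average. The next 11 cytosines, from 102754708 to 102754855, were all lower, at 30.2% and 22.0%. The bin with the largest gain, from 102754001, went from 22.5% to 31.8%. Runs, here and above, were cut where the sign of the difference changed, so their single direction is no test.

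The largest difference at Gfap was a loss near the upper end of the span. From base 102761718 to 102762163, 11 neighbouring cytosines were all lower in the ATO library, at a mean of 61.1% in control and 36.8% in ATO DNA. Of these, 3 were called: 102761792 went from 85.5% to 52.3%, 102761797 from 88.9% to 52.1% and 102762046 from 48.0% to 22.6%. Their adjusted p was 0.00365, 0.000178 and 0.0162 in Fisher's exact test. The bin from 102761501 was 70.3% in the control (exact 95% interval on reads weighted for shared fragments 55.7 to 81.7) and 41.4% in the ATO library (28.2 to 56.8). All 6 of its cytosines were lower, and its adjusted p was 0.163 in Fisher's exact test. The next bin, from 102762001, went from 32.9% to 20.2%.

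The other called cytosines of Gfap were in the inner groups. Base 102757383 went from 93.5% to 58.0% (adjusted p 1.87e-05 in Fisher's exact test) within a run of 5 lower cytosines that averaged 94.0% and 75.8%. Base 102754521 went from 16.7% to 50% (adjusted p 0.0383 in that test) within the run of 21 higher ones. Over the whole span, 49 cytosines were lower and 45 higher, and 30.9% had an unadjusted p under 0.05, against the 12.8% of the series. Among cytosines between 20 and 80% these shares were 46.2% and 29.2%. Those at Gfap lie in a few groups, where neighbours share reads. The lower mean rests on the outer loss: without the outer 5 kb on each side, the difference at Gfap was 1.81 points in place of -2.31.

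**Figure D2:**
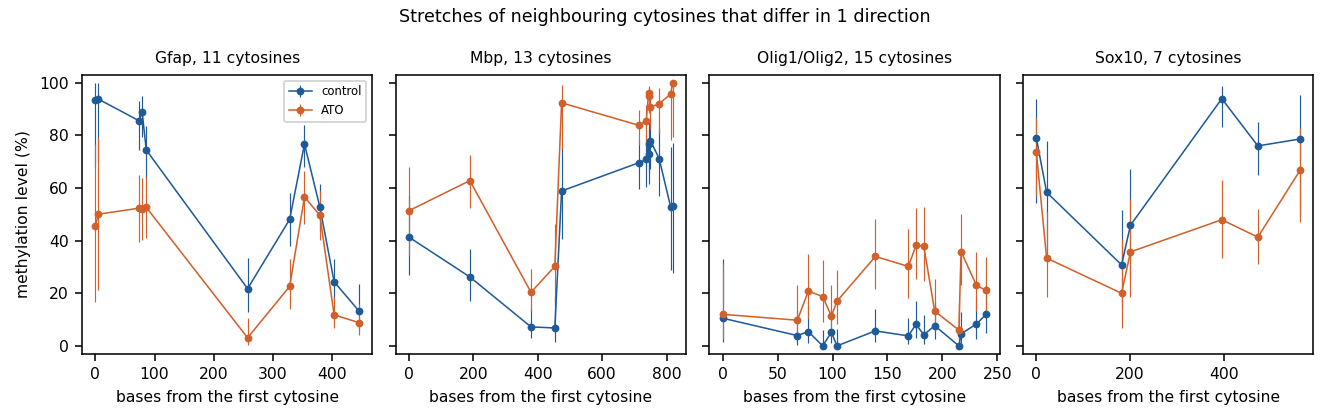
Methylation level (%) with exact 95% intervals at each cytosine of 1 run per span, the one with the most called cytosines or, at Mbp, where 4 runs held 1 each, the one among them with the largest difference, against bases from its first cytosine, with the control in blue and the ATO library in orange. The ATO library is lower at each of the 11 Gfap and 7 Sox10 cytosines, and higher at each of the 13 Mbp and 15 Olig1/Olig2 cytosines; the runs were picked for having 1 direction, so that direction is no test.

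The difference of partly methylated cytosines, with a mean of both libraries between 20 and 80%, varied in size and sign between the genes. At Sox10, 51 of them averaged 57.5% in control and 52.0% in ATO DNA, a difference of -5.43 points. The 39 at Gfap averaged 51.0% and 46.0%, or -5.02 points. At Mbp, 269 averaged 57.7% and 56.8%, or -0.83 points, and at Olig1/Olig2 41 averaged 41.5% and 44.7%, or 3.20 points. Over all 613074 cytosines of that range the difference was -3.76 points. Gfap and Sox10 thus lay on the lower side of the whole series, and Mbp and Olig1/Olig2 on the other side, within SDs between cytosines of 14.0 to 21.4 points.

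Below 20%, the differences were smaller, at 0.95 points for 39 cytosines of Gfap, 0.69 for 91 of Mbp, 0.44 for 447 of Olig1/Olig2 and -0.29 for 57 of Sox10, against -0.09 over the series. Above 80% they were -3.65 for 16 cytosines of Gfap, -0.88 for 146 of Mbp, -2.07 for 7 of Olig1/Olig2 and 1.04 for 18 of Sox10, against -1.02. By part of the spans, the 452 cytosines in dense unmethylated bins averaged 4.87% and 4.71% with none called, while 0.0445% of such cytosines were called over the series. The 214 within 2000 bp of them averaged 37.4% and 38.5%, and the other 555 averaged 57.8% and 56.7%. In these 2 classes 3.74% and 2.52% were called, against 2.64% and 4.48% over the series. With a coverage minimum of 20, the differences of these classes were -0.25 points in place of 1.13 and -0.40 in place of -1.16. Gfap had no dense unmethylated bin of its own.

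**Figure D3:**
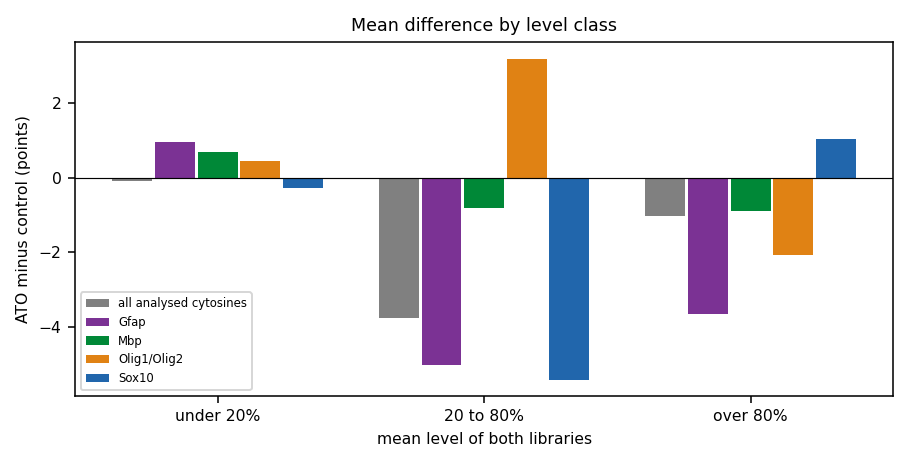
Mean difference, ATO minus control in percentage points, by level class (under 20, 20 to 80 and over 80%, from the mean of both libraries) for each span and for all analysed cytosines. In the middle class Sox10 and Gfap lie below 0, at -5.43 and -5.02, and Olig1/Olig2 above it, at 3.20.

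**Figure D4:**
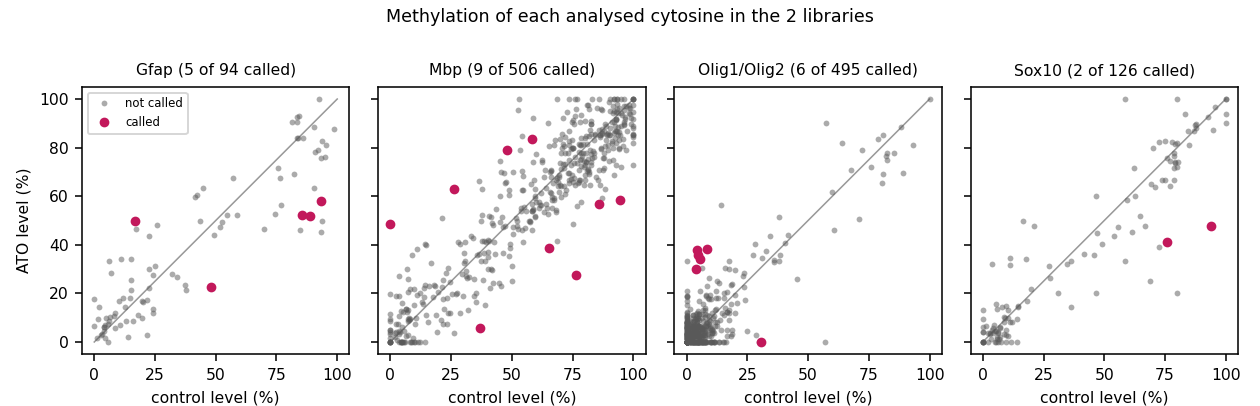
Level in the ATO library against level in the control (both in %), 1 point per analysed cytosine and 1 panel per span, with called cytosines marked. Points at Olig1/Olig2 crowd near the origin, those at Mbp are mostly in the upper right, and the called ones lie off the diagonal on both sides at Gfap, Mbp and Olig1/Olig2 and below it at Sox10.

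The spans were set beside promoter windows of other marker genes of the same cell types, from lists of 25 astrocyte, oligodendrocyte and precursor genes and 10 neuronal ones. Of the 25, 18 have a RefSeq window and 9 could be placed and measured, with shallow cytosines off the CpGs of a window allowed. In the control 6 of the 9 were under 10% methylated, as were 85.4% of the 13648 windows measured in all. In the ATO library 6 were lower and 3 higher, with a median difference of -2.61 points, against -0.04 over all windows. That median turned to 1.35 with the 4 windows placed under the stricter rule, so the lists gave no direction for glial promoters. All 5 measured neuronal windows were between 1.90% and 2.08% in the control, with a median difference of 0.53 points. None of the 6 microglial genes could be placed.

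Mobp and Gja1 had the largest differences among the list genes and are shown for that reason, with CpGs in capitals. Mobp codes for a myelin protein of oligodendrocytes and Gja1 for connexin 43, the main gap junction protein of astrocytes. The bases before their starts are from RefSeq (GRCm38.p6), on the plus strand, placed in mm9 at chr9:120058610-120058859 and chr10:56096856-56097105.
Mobp: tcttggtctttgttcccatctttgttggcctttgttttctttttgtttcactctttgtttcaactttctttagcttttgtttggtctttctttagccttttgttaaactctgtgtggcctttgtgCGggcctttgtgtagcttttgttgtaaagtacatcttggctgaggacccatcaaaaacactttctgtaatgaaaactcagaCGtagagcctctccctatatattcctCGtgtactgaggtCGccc
Gja1: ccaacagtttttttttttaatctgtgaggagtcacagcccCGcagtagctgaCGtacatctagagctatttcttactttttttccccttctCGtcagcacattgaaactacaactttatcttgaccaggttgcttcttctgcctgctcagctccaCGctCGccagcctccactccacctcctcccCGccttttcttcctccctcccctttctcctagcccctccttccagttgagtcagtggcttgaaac

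Few CpGs carry these values, 4 in the Mobp stretch and 6 in that of Gja1. Over the whole Mobp window, 74.5% of calls were methylated in the control (exact 95% interval 70.1 to 78.6) and 56.9% in the ATO library (52.2 to 61.4). These intervals are too narrow, because they count every call as independent although neighbouring CpGs of the window share reads. All 5 of its cytosines were lower, at 51 to 110 reads, and none was called. The Gja1 window averaged 7.12% and 20.04%, all 8 of its cytosines were higher, and 1 was called, going from 4.88% to 50% (adjusted p 3.72e-05 in Fisher's exact test). Cspg4, which codes for the proteoglycan NG2 of oligodendrocyte precursors, had a window at 22.6% and 11.1%, with 16 of 17 cytosines lower and none called. Cldn5, a tight junction gene of endothelial cells, was the only endothelial gene measured and had a window at 28.4% and 34.4%, with 6 of 12 cytosines lower. The window of Cldn11, a tight junction gene of myelin, was low in both libraries, at 3.19% and 5.11%, as was that of Olig2.

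**Figure D5:**
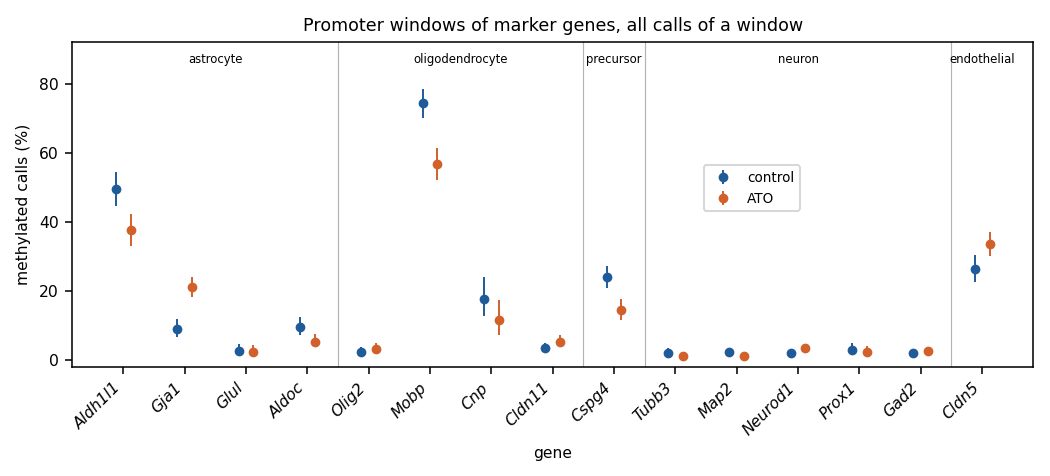
Percent of methylated calls in the promoter windows of 15 measured marker genes, with exact 95% intervals, grouped by cell type, with the control in blue and the ATO library in orange. The intervals count every call as independent, although neighbouring CpGs share reads, and are too narrow. Mobp, Aldh1l1 and Cspg4 are lower and Gja1 is higher in the ATO library, while Olig2 and the neuronal windows stay near the bottom.

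The members were followed with the share of glial cells in the tissue in view, and these values give no direct measure of it. The 4 spans together went from 34.6% to 34.3%, a difference of -0.38 points (SD 11.2), less than that of the whole series, and by gene the sign differed. Whether the share of astrocytes or oligodendrocytes differed between the libraries was not tested.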

How the data were processed

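CpG methylation was measured in 2 bisulfite libraries of mouse hippocampus. Per the labels' protocols, DNA was enriched with the SureSelectXT Mouse Methyl-Seq kit, and per the submitters' processing notes bcl2fastq, Bismark 0.19.0 and Bowtie2 were used with the mm9 genome; read trimming and the handling of duplicates are not given in the sources used. Per the file headers, the authors deposited coverage as a count of reads per cytosine, with C and T as percent of it, by strand. Coverage multiplied by percent C gave the methylated count; 100% of these products were whole within 0.005 points. The libraries held 135987272 (control) and 147924810 (ATO) calls, and analysed cytosines had median coverages of 41 and 44.

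Cytosines with at least 10 reads in both libraries were compared with two-sided Fisher's exact tests, adjusted (Benjamini-Hochberg) over the whole table. Reads of 500-bp bins with at least 5 cytosines were summed and divided by the largest number of cytosines in any 300-bp stretch. A run is 5 or more neighbouring cytosines of 1 sign, no more than 300 bp apart. Runs, unmethylated stretches and sides of a span were described without a test. Intervals are Clopper-Pearson, on the divided reads for bins and on all calls for promoter windows. A level of 0 is given the limit of 3 reads of its coverage. Promoter windows were placed where at least 4 and 80% of their CpGs, and 1 place alone, matched listed cytosines. Of 32851 windows, 8305 were placed with no listed cytosine off the CpGs, and 15804 where such cytosines under 10 reads were allowed, a rule chosen after seeing the data; 98.8% of these lay within 20000 bp of where neighbouring windows put them. The callers and the placement were tested on simulated data. The simulated counts were drawn independently for each cytosine, without shared fragments or added dispersion, so they do not measure false calls in these data. Python 3.11.15, SciPy 1.17.1 and pandas 2.3.3 were used.

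All members were named, with every called cytosine, the bins with the lowest and highest level and the largest difference in each direction in each span, and the 2 list genes with the largest window difference in each direction. Members, lists and rules were chosen with earlier results of these data known. An mm9 annotation was not used here, so exons, introns and untranslated regions are not given. Coverage minimums, bin sizes, weights, thresholds, span edges and placement rules were varied.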

Additional observations from a re-analysis of the deposited data

How the results depend on the processing

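Of 78 recomputed values, 61 moved by less than their counting interval or, for counts, less than 1.5 times, and 17 moved more. Several mean differences changed sign, among them that of the Olig2 window, from 0.79 to -0.70 points when it was extended by 500 bp on each side. Without the outer 5 kb on each side, the mean difference was 1.81 points at Gfap (-2.31 with the flanks) and -0.35 at Olig1/Olig2 (0.63). In partly methylated cytosines alone it was -5.02 at Gfap, 3.20 at Olig1/Olig2 and -5.43 at Sox10. Over the whole table, 39902 cytosines were called at an adjusted p under 0.01, and 823 when counts were scaled down by the dispersion between a CpG's strands (3.11). That dispersion was averaged over those of the 61956 CpGs read on both strands with a level of 20 to 80%. It was applied to cytosines of every level. In the spans 40 of 1221 (3.28%) were called with no minimum difference, against 3.88% over the whole table. With counts divided by the dispersion, 0 were called in the spans by Fisher's exact test, against 0.0356%. Called bins over the whole table numbered 1667 with bins of 200 bp, 557 with at least 10 cytosines and 7524 (4.94%) with all calls counted. In the spans, 2 of 81 (2.47%) were called with all calls counted. The glial windows' median difference was 1.35 points over 4 windows, and -2.61 over 9 with shallow cytosines off the CpGs allowed; the neuronal one was -0.29 and 0.53. At a coverage minimum of 20, cytosines near dense bins differed by -0.25 points (1.13 at 10) and the others by -0.40 (-1.16). The cause of these shifts was not tested. Depth limits single cytosines, since a difference of 25 points at 10 reads rests on few molecules. No paired analysis was possible because each group has 1 library, and for the same reason no replicate could be left out.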

Other observations

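Among the glial list genes outside the naming rule, Aldh1l1, which codes for a folate enzyme used as an astrocyte marker, is given here after its values were seen. Its window averaged 44.3% in control and 34.0% in ATO DNA, and 1 of its 9 cytosines was called, going from 63.9% to 26.2% (adjusted p 0.00336 in Fisher's exact test). Aldoc, a glycolytic enzyme gene of astrocytes, had a window at 9.86% and 4.94%, and Glul, which codes for glutamine synthetase, at 2.91% and 1.98%. Cnp, a myelin enzyme gene, was at 9.92% and 7.31%, over 6 analysed cytosines in a window of 17 CpGs. All these windows were placed only with shallow cytosines off the CpGs allowed, a rule chosen after seeing the data. The window of Gja1, also an astrocyte gene, was placed under the stricter rule and was higher in the ATO library, at 7.12% and 20.04%. Of the 9 glial windows measured, 6 were lower and 3 higher.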
